A study of Mus musculus with 6 samples.

Results

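The genes described here are 36 genes of the interferon response and of antigen presentation by MHC class I, taken by symbol from a table of 15960 genes measured in mouse liver, and all 36 were found in it. They comprise transcription factors, the ISG15 system, RNA sensors, antiviral effectors, interferon-inducible GTPases, the class I chains, the peptide-loading machinery and the immunoproteasome. Whole-liver RNA was sequenced from 3 Cyp2e1-/- samples (knockout, KO) and 3 Cyp2e1+/+ samples (wild type, WT). Both genotypes were C57BL/6, 22 weeks old, and had been on a high-fat diet for 14 weeks. The labels give neither the sex of the animals nor whether the genotypes were littermates, and they describe no infection and no interferon treatment. The comparison described here is between livers of these 2 genotypes. CYP2E1 is a cytochrome P450 of hepatocytes, and its protein was not measured here. Values are FPKM, fragments per kilobase of transcript scaled to the depth of the library, so levels can be compared between genes.

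Interferons are secreted proteins that put cells into an antiviral state. Type I interferons act through the receptor chains IFNAR1 and IFNAR2 and the kinases JAK1 and TYK2 on a complex that holds STAT2 and IRF9 and binds a promoter element called the ISRE. Interferon gamma acts through another element, called GAS, and strongly induces the GTPases and the MHC class I pathway. In that pathway the immunoproteasome cuts proteins into peptides, TAP1 and TAP2 carry these into the endoplasmic reticulum, tapasin (Tapbp) helps to load them, and a heavy chain such as H2-K or H2-D presents them at the cell surface together with beta-2-microglobulin. In liver, hepatocytes, Kupffer cells and endothelium all express parts of this program.

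The libraries summed to 562590 to 624264 FPKM with 9628 to 9963 genes at 1 FPKM or more. Cyp2e1 stood at 247 to 271 FPKM in the KO libraries and 5942 to 7427 in the WT libraries, which matched the labels. The hepatocyte genes Alb and Apoa1 were abundant in all 6 libraries, at 24938 to 33779 and 5641 to 8307 FPKM. Replicate 1 of both genotypes stood apart from the other 4 libraries, among others in 2 neutrophil genes: S100a8 was at 8.75 FPKM in KO replicate 1 and 10.2 in WT replicate 1, against 0.77 to 3.34 in the rest. With these 2 libraries 76 of all tested genes passed the test, and 1183 without them. Because these 2 libraries stood apart, the differences of the 30 tested genes without replicate 1 of both genotypes are given as well. The labels give no reason to exclude them. Leaving out libraries that stand apart in these same data can narrow the spread, so the p-values of that fit are descriptive only.

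Of the 36 genes, 30 reached 1 FPKM in at least 3 libraries and were tested, and 1 of the 30 passed: Ifi27, which rose in the knockout (limma on log2(FPKM + 1), Benjamini-Hochberg adjusted p under 0.05 over 9968 genes). Over all tested genes 0.762% passed, made up of 0.472% higher and 0.291% lower. No gene of the group was called lower, although 21 of the 30 had a negative difference, compared with 55.8% of all tested genes. At an unadjusted p under 0.05 there were 7, of which 6 were lower and 1 higher in the knockout, against 9.93% of all tested genes (5.89% lower and 4.04% higher). The median difference, knockout minus wild type, was -0.20 on the log2(FPKM + 1) scale, and -0.028 over all tested genes. KO and WT values did not overlap in 9 of the 30, 7 of them lower in the knockout (Stat2, Ifih1, Ifi35, Igtp, Irgm1, Gbp7 and Tap1) and 2 higher (Ifi27 and Bst2). The share of non-overlapping genes was 15.4% over all tested genes, made up of 10% lower and 5.32% higher. Of the 3 genes that mark an interferon response here, Ifi27 passed, and Isg15 and Irf7 did not.

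**Figure D1:**
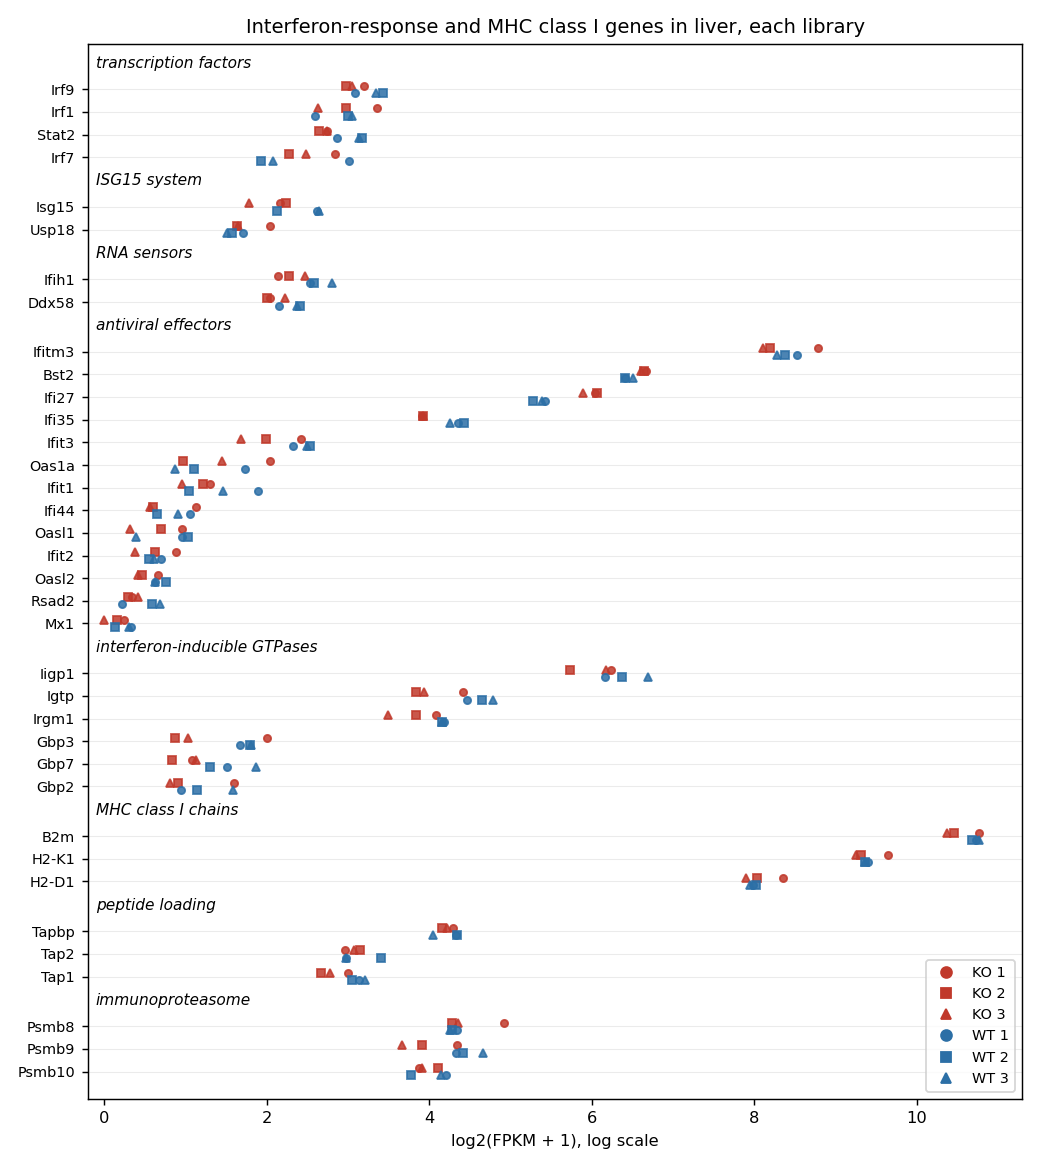
Level of each of the 36 genes in each library as log2(FPKM + 1) on the x axis, with genes grouped by role on the y axis; red symbols are KO and blue are WT libraries, and circle, square and triangle are replicates 1, 2 and 3. B2m, H2-K1, Ifitm3 and H2-D1 lie far above the rest, and Ifi27 is the gene whose red and blue symbols are most clearly apart.

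Levels ranged over several orders of size between genes, from Mx1, listed at 0 in KO replicate 3 and at 0.26 FPKM or less elsewhere, to B2m at 1322 to 1741 FPKM. The class I chains B2m, H2-K1 and H2-D1, the membrane protein Ifitm3, and Bst2, Ifi27 and Iigp1 were at 37.8 FPKM or more in every library. The other 29 genes lay under 30 FPKM. The 6 genes that were not tested, namely Ifit2, Oasl1, Oasl2, Mx1, Rsad2 and Ifi44, all antiviral effectors, lay between 0 and 1.19 FPKM. By an estimate from the steps of low values, 1 FPKM stood for 8.19 to 10.7 fragments per kilobase, so the values of these 6 genes rest on few fragments.

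Ifi27 encodes a small membrane protein that interferon induces. It stood at 64.7, 65.7 and 58.4 FPKM in KO replicates 1, 2 and 3 and at 42.2, 37.8 and 40.8 FPKM in WT replicates 1, 2 and 3. Every KO library lay above every WT library. The means were 62.9 ± 3.98 and 40.2 ± 2.24 FPKM (SD, n = 3 each), a ratio of 1.56. On the log2(FPKM + 1) scale the difference was 0.63 (SE 0.12, interval 0.37 to 0.89; limma, adjusted p = 0.043). The size of the difference hardly depended on the libraries, at 0.59 to 0.68 in each of the fits that left libraries out, and Ifi27 also passed without replicate 1 of both genotypes (0.65; limma, adjusted p = 0.0028). The call itself was lost without KO replicate 2 or 3 or WT replicate 2 or 3 (limma, adjusted p = 0.26, 0.12, 0.24 and 0.18), with the replicate number as a block (0.086), with median centring (0.069) and with no filter on low values (0.071).

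Ifi27 (gene 52668) lies on chromosome 12 at 103434189 to 103440245 (GRCm38), inside the annotated span of its relative Ifi27l2a. Of the 31-base words of its transcripts, 0% occurred in another gene, its relative included. Ifi27l2a had another pattern, with 10.2 FPKM in KO replicate 1 and 14.2 in WT replicate 1 but 1.18 and 2.72 in KO replicates 2 and 3 and 3.93 and 1.76 in WT replicates 2 and 3. It was high in replicate 1 of both genotypes and did not differ between genotypes beyond that spread (-0.40, SE 0.65; limma, adjusted p = 0.93). Its relative Ifi27l2b stood at 3.85 to 7.92 FPKM in KO and 3.64 to 8.51 in WT.

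**Figure D2:**
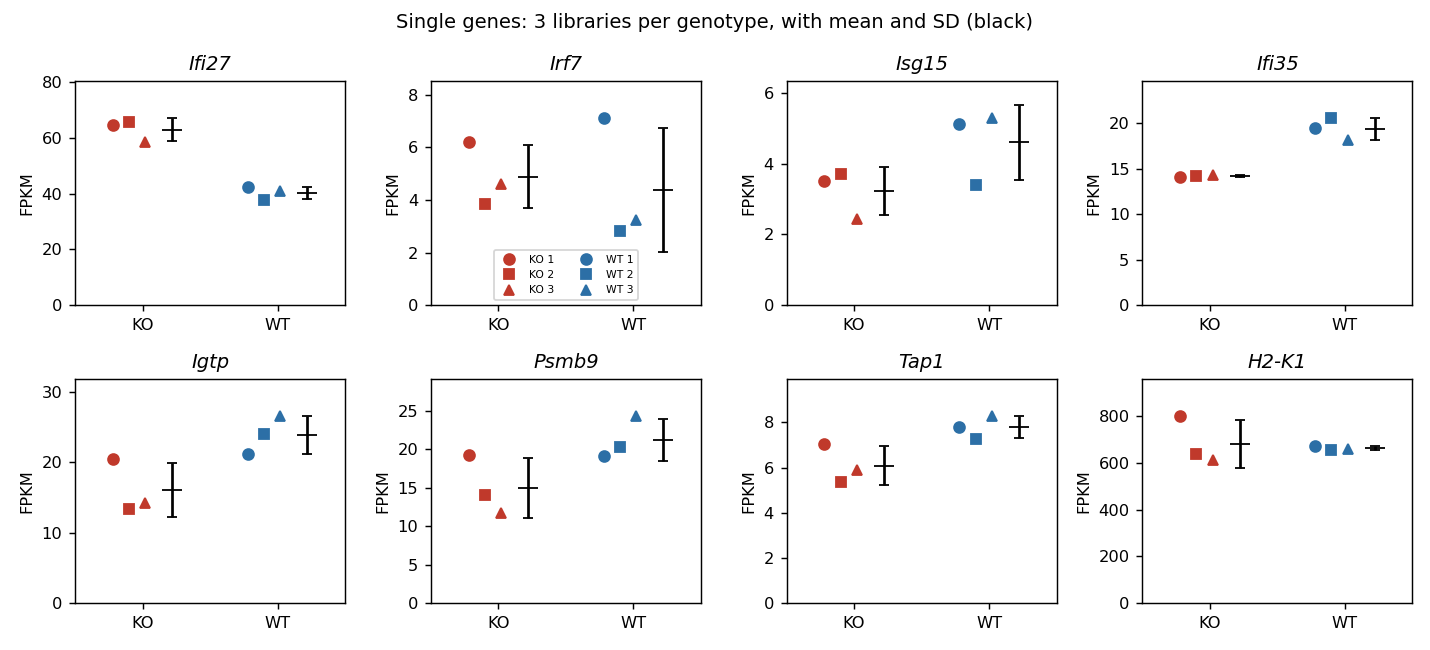
FPKM on the y axis, from 0, for 8 genes in the 3 KO and 3 WT libraries, with the mean and SD in black; circle, square and triangle are replicates 1, 2 and 3. Ifi27 is higher in all KO libraries, Ifi35, Igtp and Tap1 are lower in all of them, Irf7 is highest in replicate 1 of both genotypes, and H2-K1 differs by less than its KO spread.

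The transcription factors showed no called change: 0 of 4 passed (limma), 1 of them, Stat2, at an unadjusted p under 0.05. Irf7, the factor that amplifies type I interferon production and is itself induced by interferon, stood at 6.20, 3.84 and 4.61 FPKM in KO replicates 1, 2 and 3 and at 7.10, 2.81 and 3.23 in the WT replicates. Replicate 1 was the highest library of each genotype, and the genotypes overlapped (0.19, SE 0.28; limma, adjusted p = 0.90). Without WT replicate 1 the Irf7 difference was 0.53, and without replicate 1 of both genotypes it was 0.38 (limma, adjusted p = 0.16). In both cases every KO value lay above every WT value, and Irf7 did not pass. Irf9, the DNA-binding partner of STAT2 and the most abundant of the 4 factors, stood at 8.17, 6.90 and 7.29 FPKM in KO and 7.54, 9.79 and 9.20 in WT (-0.22, SE 0.15; limma, adjusted p = 0.69). Irf1, which interferon gamma induces, ranged from 5.20 to 9.29 FPKM in KO and from 5.07 to 7.30 in WT. Its highest value was in KO replicate 1, and without that library its difference changed sign, from 0.11 to -0.082. Stat2 was at 5.70, 5.26 and 5.68 FPKM in KO and at 6.28, 8.01 and 7.81 in WT. All KO values lay below all WT values (-0.35, SE 0.14; limma, adjusted p = 0.45). Stat2 overlaps the much more abundant gene Apof by 753 bases of annotated span, and Apof stood at 236 to 302 FPKM in KO and 278 to 318 in WT. No source used here says if the counting was stranded, and the part of Apof reads in the Stat2 values was not tested.

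ISG15 is a ubiquitin-like protein that interferon induces, and USP18 removes it from its targets and dampens receptor signalling. Isg15 stood at 3.50, 3.71 and 2.45 FPKM in KO and at 5.13, 3.39 and 5.28 in WT. WT replicate 2 lay among the KO values, so the groups overlapped (-0.40, SE 0.19; limma, adjusted p = 0.54). Usp18 stood at 3.12, 2.12 and 2.13 FPKM in KO against 2.27, 1.97 and 1.85 in WT (0.18, SE 0.17; limma, adjusted p = 0.80). So 0 of these 2 genes passed, also at an unadjusted p under 0.05, and their differences had opposite signs.

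The cytosolic sensors of viral RNA, MDA5 (Ifih1) and RIG-I (Ddx58), were both a little lower in the knockout, and 0 of 2 passed at either p (limma). Ifih1 stood at 3.41, 3.85 and 4.56 FPKM in KO and 4.79, 4.98 and 6.01 in WT, without overlap (-0.34, SE 0.16; limma, adjusted p = 0.51). Ddx58 stood at 3.11, 3.01 and 3.69 FPKM in KO and 3.46, 4.32 and 4.18 in WT, with KO replicate 3 above WT replicate 1.

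Among the antiviral effectors Ifi27 rose, none of the other 6 tested genes passed, and 6 more were too low to test. Ifitm3, which blocks the entry of viruses through endosomes, was the most abundant, at 442, 293 and 274 FPKM in KO and 369, 331 and 309 in WT. KO replicate 1 was the highest library, and the means were alike (336 ± 91.8 and 337 ± 30.2 FPKM, SD, n = 3 each). Bst2, or tetherin, which holds budding virus particles at the membrane, stood at 100.5, 98.8 and 96.5 FPKM in KO and 83.9, 84.0 and 90.2 in WT. Like Ifi27 it was higher in every KO library, but the ratio of means was 1.15 and it did not pass (0.19, SE 0.11; limma, adjusted p = 0.61). Ifi35, an interferon-induced protein, had KO values that were close together. It stood at 14.1, 14.2 and 14.3 FPKM in KO and at 19.4, 20.5 and 18.1 in WT, so that the highest KO library was well below the lowest WT library. The difference of -0.42 (SE 0.12) did not pass over all genes (limma, adjusted p = 0.21), and did without replicate 1 of both genotypes (-0.42; limma, adjusted p = 0.038).

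The IFIT proteins bind foreign RNA, and the OAS proteins make the messenger that activates RNase L. Ifit3 stood at 4.36, 2.99 and 2.22 FPKM in KO and 4.02, 4.79 and 4.63 in WT. KO replicate 1 was among the WT values, and KO replicates 2 and 3 below them (-0.42, SE 0.19; limma, adjusted p = 0.53). Ifit3 shares 61.8% of its 31-base words with Ifit3b, and how shared reads were assigned is unknown. Ifit3b was at 0.59 to 1.06 FPKM in KO and 0.88 to 1.58 in WT. Ifit1 stood at 0.95 to 1.48 FPKM in KO and 1.06 to 2.73 in WT, highest in WT replicate 1. Oas1a stood at 3.13, 0.97 and 1.73 FPKM in KO and 2.34, 1.16 and 0.83 in WT, highest in replicate 1 of both genotypes. It shares 68.7% of its words with Oas1g, which makes its level uncertain. The 6 untested effectors had ratios of KO to WT means from 0.52 (Mx1) to 1.04 (Ifit2), at levels where few fragments stand behind each value.

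**Figure D3:**
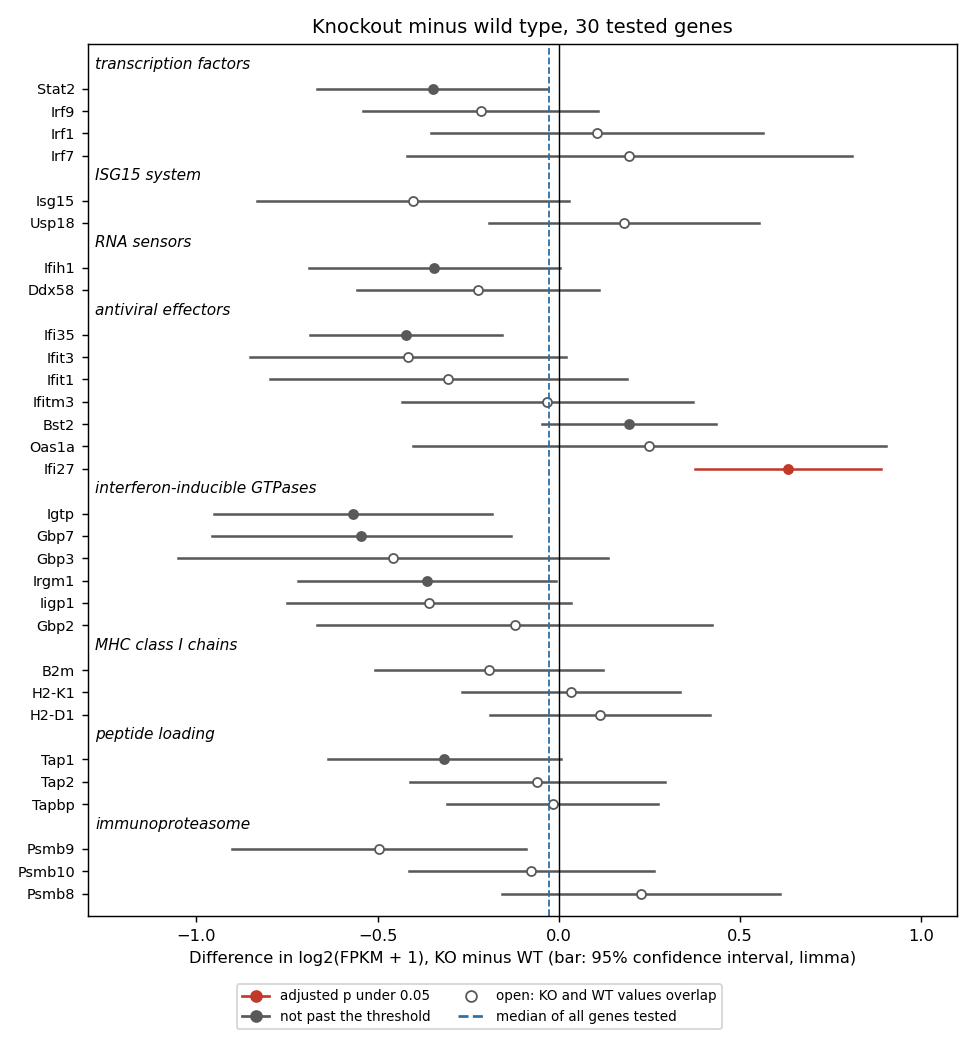
Difference in log2(FPKM + 1), knockout minus wild type, on the x axis for the 30 tested genes by role, with 95% confidence intervals from limma; filled points mark genes whose KO and WT values did not overlap, red marks an adjusted p under 0.05, and the dashed line is the median of all tested genes (-0.028). Ifi27 is the red point at 0.63, and all 6 GTPases lie to the left of 0.

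The interferon-inducible GTPases were the role with the lowest median, -0.41. These proteins act in the defence of cells against intracellular pathogens that live in vacuoles. All 6 had a negative difference, 3 of them (Igtp, Irgm1 and Gbp7) did not overlap between genotypes and had an unadjusted p under 0.05, and 0 of 6 passed over all genes (limma). Over all tested genes 55.8% had a negative difference, 10% did not overlap and were lower, and 5.89% were lower at an unadjusted p under 0.05. Igtp stood at 20.5, 13.3 and 14.3 FPKM in KO replicates 1, 2 and 3 and at 21.1, 24.1 and 26.6 in the WT replicates. KO replicate 1 was just under the lowest WT library, and KO replicates 2 and 3 were well below it (-0.57, SE 0.17; limma, adjusted p = 0.25). Igtp shares 15.9% of its 31-base words with Irgm2. Iigp1, on chromosome 18 and the most abundant of the 6, stood at 74.2, 52.3 and 71.6 FPKM in KO and 70.8, 81.7 and 102.7 in WT, with overlap (-0.36, SE 0.18; limma, adjusted p = 0.55). Irgm1 stood at 15.9, 13.3 and 10.3 FPKM in KO and within 16.8 to 17.2 in WT (-0.36, SE 0.16; limma, adjusted p = 0.49).

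The guanylate-binding proteins Gbp2, Gbp3 and Gbp7, which lie together on chromosome 3, were low. Gbp7 stood at 1.11, 0.79 and 1.19 FPKM in KO and 1.86, 1.46 and 2.65 in WT (-0.54, SE 0.19; limma, adjusted p = 0.33). Gbp3 stood at 3.01, 0.83 and 1.05 FPKM in KO and 2.20, 2.47 and 2.51 in WT: KO replicate 1 was the highest library of all, and KO replicates 2 and 3 the lowest. Gbp2 was likewise highest within KO in replicate 1, with 2.03, 0.88 and 0.75 FPKM, and 0.93, 1.22 and 2.0 in WT (-0.12, SE 0.24; limma, adjusted p = 0.94). Gbp3 and Gbp7 share sequence, 5.62% of the words of Gbp3, so small differences between them are uncertain. Shared words also made up 14.7% in Gbp7, 11.8% in Iigp1, 12.8% in Isg15, 20.5% in Ifitm3 and 10.5% in Ifit1. Iigp1 shares the most, 8.71%, with Gm4951, a GTPase gene with a positive difference that was not called (0.48; limma, adjusted p = 0.38). The part of shared reads in the Iigp1 values was not tested.

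Because several of these genes are known ISRE or GAS targets, their promoters were read from RefSeq (GRCm38.p6, 250 bases before to 50 after each start), where 31 of the 36 genes had an entry. Ifi27, Iigp1, Mx1, Tap2 and Usp18 had none. The ISRE letters searched were GAAA, any 2 bases and GAAA, on either strand (TTTC, any 2 bases and TTTC on the other). They stood in the window of 16 of the 31 genes, compared with 3.99% of all 27025 genes with an entry. TTCNNNGAA, the GAS letters, which read the same on both strands, stood in 9 of the 31, compared with 9.55%. The windows below belong to the marker Isg15 and to genes whose KO and WT values did not overlap, lower in the knockout (Stat2, Igtp, Irgm1 and Gbp7) or higher (Bst2). Each is written 5′ to 3′ on the strand of the gene, with the ISRE letters in capitals and 12 bases on either side.
Isg15, chr4:156200863-156200908, minus strand: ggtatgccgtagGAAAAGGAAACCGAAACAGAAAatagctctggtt
Stat2, chr10:128270264-128270297, plus strand: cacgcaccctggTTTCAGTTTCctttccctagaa
Bst2, chr8:71537575-71537614, minus strand: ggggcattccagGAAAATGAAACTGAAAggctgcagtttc
Igtp, chr11:58199510-58199543, plus strand: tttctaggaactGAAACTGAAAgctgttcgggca
Irgm1, chr11:48871423-48871462, minus strand: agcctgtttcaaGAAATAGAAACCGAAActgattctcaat
Gbp7, chr3:142530271-142530304, plus strand: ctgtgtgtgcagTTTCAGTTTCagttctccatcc
The capitals of Isg15, Irgm1 and Bst2 hold overlapping matches on one strand, and those of Stat2 and Gbp7 are on the opposite strand. The matching letters thus occurred in promoters of some genes that were lower in every KO library and of Bst2, which was higher in every one. Of the other genes that were lower in every KO library, Ifih1 also held the ISRE letters, and Ifi35 and Tap1 did not. The windows printed were chosen for holding a match, so they do not link the letters to a direction. A match of letters is not evidence of binding.

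Of the chains of MHC class I, B2m and H2-K1 were the most abundant genes of the group, and H2-D1 came after Ifitm3. Of the 3 chains 0 passed at either p (limma). B2m, which encodes beta-2-microglobulin, stood at 1741, 1411 and 1322 FPKM in KO and 1701, 1638 and 1737 in WT. KO replicate 1 was the highest library and KO replicates 2 and 3 the lowest (-0.19, SE 0.14; limma, adjusted p = 0.72). H2-K1 stood at 800.4, 636 and 611 FPKM in KO and 672, 657 and 658 in WT. The 3 WT libraries differed little, while the KO libraries lay on both sides of them (0.033, interval -0.27 to 0.33). H2-D1 stood at 325, 261 and 238 FPKM in KO and 252, 258 and 245 in WT. It too was highest in KO replicate 1, and KO replicate 2 lay above every WT library (0.11, interval -0.19 to 0.42). These intervals leave room for a change of about 0.3 to 0.4 on the log2 scale in either gene. H2-K1 shares 20.3% and H2-D1 27.6% of their 31-base words with other genes, 14.3% and 13.6% with each other, which makes their separate levels uncertain. The ratio of H2-K1 to H2-D1 was 2.43 to 2.57 in KO and 2.55 to 2.69 in WT.

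Of the 2 chains of the peptide transporter, Tap1 alone had KO and WT values that did not overlap. Tap1 stood at 7.04, 5.35 and 5.88 FPKM in KO and 7.81, 7.28 and 8.28 in WT, without overlap, but did not pass (-0.32, SE 0.14; limma, adjusted p = 0.51). Tap2 stood at 6.81, 7.87 and 7.41 FPKM in KO and 6.87, 9.60 and 6.90 in WT, and Tapbp at 18.6, 16.9 and 17.6 FPKM in KO and 19.1, 19.2 and 15.6 in WT. Both overlapped, and 0 of the 3 loading genes passed at either p (limma). Whether Tap1 and Tap2 differed from each other in this was not tested.

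The immunoproteasome replaces the 3 catalytic subunits of the standard proteasome, Psmb6, Psmb7 and Psmb5, by Psmb9, Psmb10 and Psmb8. Of these 3 interferon-inducible subunits 0 passed over all genes, and Psmb9 alone had an unadjusted p under 0.05 (limma). Psmb9 stood at 19.3, 14.1 and 11.7 FPKM in KO and 19.2, 20.3 and 24.3 in WT. KO replicate 1 lay just above WT replicate 1, and KO replicates 2 and 3 below every WT library (-0.50, SE 0.18; limma, adjusted p = 0.37). Psmb8 stood at 29.4, 18.4 and 19.5 FPKM in KO and 19.3, 18.5 and 18.1 in WT, with KO replicate 1 far above the other 5 libraries (0.23, SE 0.17; limma, adjusted p = 0.74). Psmb10 stood at 13.7, 16.3 and 14.1 FPKM in KO and 17.5, 12.7 and 16.8 in WT. The ratio of Psmb9 to its standard counterpart Psmb6 was 0.28, 0.18 and 0.19 in KO and 0.22, 0.34 and 0.41 in WT, and that of Psmb8 to Psmb5 was 0.74, 0.29 and 0.35 in KO and 0.38 to 0.46 in WT. These ratios overlapped between genotypes.

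Psmb9 and Tap1 lie head to head on chromosome 17, and Psmb8 and Tap2 follow next to them. The annotated starts of Psmb9 and Tap1 are separated by 225 bases (GRCm38.p6), printed here because it precedes both genes and both were lower in KO replicates 2 and 3 than in any WT library.
Psmb9 to Tap1, chr17:34187331-34187555, plus strand: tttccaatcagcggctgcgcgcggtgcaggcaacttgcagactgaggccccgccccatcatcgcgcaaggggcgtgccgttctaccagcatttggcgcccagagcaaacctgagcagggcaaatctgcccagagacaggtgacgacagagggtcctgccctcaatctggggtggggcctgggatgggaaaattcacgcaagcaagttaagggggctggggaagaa
Read from left to right it runs from the start of Psmb9 to that of Tap1. Neither the ISRE nor the GAS letters searched occur in it, which says only that these letters are absent from this stretch.

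**Figure D4:**
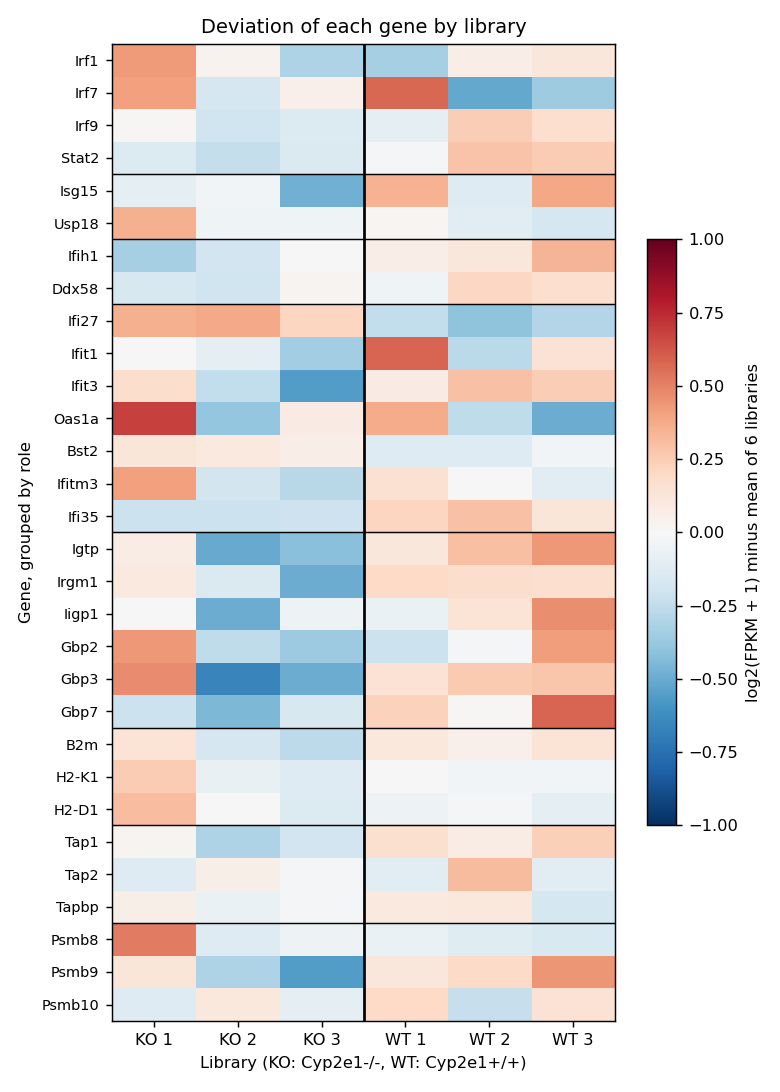
Color gives each tested gene's log2(FPKM + 1) in a library minus its mean over the 6 libraries, with genes by role on the y axis and libraries on the x axis (KO left, WT right of the thick line). KO replicate 1 is red for Irf1, Irf7, Oas1a, Psmb8 and the class I chains, where KO replicates 2 and 3 are mostly blue, and Ifi27 and Bst2 are red in all 3 KO libraries. For Irf7 and Oas1a, WT replicate 1 is red as well.

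In the mean over the 30 tested genes, though not in every gene, KO replicate 1 lay above KO replicates 2 and 3. The mean deviation from the 6-library mean, on the log2(FPKM + 1) scale, was 0.13 in KO replicate 1, -0.17 in KO replicate 2 and -0.18 in KO replicate 3, against 0.029 to 0.11 in WT. For the GTPases it was 0.14, -0.42 and -0.33 in KO and 0.067 to 0.39 in WT. The RNA sensors went the other way within KO, with -0.25, -0.20 and 0.016, and 0.0094 to 0.26 in WT. Without replicate 1 of both genotypes, 10 of the 30 passed (limma): Ifi27 again higher, and Igtp, Psmb9, Gbp3, B2m, Ifit3, Ifi35, Iigp1, Irgm1 and Stat2 lower. Under the same condition 11.9% of all tested genes passed, 4.95% lower and 6.92% higher, and the median difference was -0.29 for the 30 genes and -0.0099 for all. Groups then did not overlap in 22 of the 30 genes, 18 lower and 4 higher in the knockout, against 56.2% of all tested genes (28.5% lower and 27.7% higher). Only 2 libraries per genotype were left in that fit. Igtp then had a difference of -0.83 (SE 0.10; limma, adjusted p = 0.0014) and Psmb9 of -0.75 (SE 0.13; limma, adjusted p = 0.0079). The others called lower had differences of -0.85 (Gbp3), -0.67 (Ifit3), -0.57 (Iigp1), -0.49 (Irgm1), -0.46 (Stat2) and -0.30 (B2m). Of the genes not called there, Gbp2 had a difference of -0.51, Irf9 of -0.37, Irf1 of -0.22, Ddx58 of -0.28, Ifitm3 of -0.18 and H2-K1 of -0.076. These 6 overlapped between genotypes with all libraries and did not, lower in the knockout, in that fit. Irf7 (0.38) and Usp18 (0.10) likewise ceased to overlap and were higher in the knockout. Gbp7 (-0.60), Tap1 (-0.41), Ifih1 (-0.32) and Bst2 (0.16) still did not overlap, and Isg15 (-0.38), Oas1a (0.22), Ifit1 (-0.16), H2-D1 (-0.012), Tap2 (-0.083), Tapbp (-0.0050), Psmb8 (0.048) and Psmb10 (0.050) overlapped. Leaving out KO replicate 1 alone gave 3 calls (limma), Ifi27 higher and Igtp and Gbp3 lower, against 2.12% of all tested genes (1.24% higher and 0.873% lower). With sample weights, which gave replicate 1 of both genotypes the lowest weights (0.37 in KO and 0.29 in WT), 10 of 30 passed, 1 higher and 9 lower, against 11.5% of all tested genes (5.99% higher and 5.56% lower). The weights were estimated from these same data, so the p-values of that fit too are descriptive only. It is not independent of the fit without replicate 1.

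Genes of antigen-presenting cells and Kupffer cells were low in KO replicates 2 and 3 as well. The MHC class II genes of antigen-presenting cells (H2-Aa, H2-Ab1, H2-Eb1, H2-DMa, H2-DMb1 and Cd74, with Itgax and Flt3) summed to 314, 132 and 107 FPKM in KO replicates 1, 2 and 3 and to 283 to 341 FPKM in WT. All 6 tested genes of that list had negative differences (median -0.88) and 0 passed, 4 at an unadjusted p under 0.05 (limma). Over all tested genes 55.8% had a negative difference, 5.89% were lower at an unadjusted p under 0.05, and 0.291% were called lower. Itgax and Flt3 were listed at 0 in KO replicate 3 and at 0.29 FPKM or less elsewhere. The 12 Kupffer cell and macrophage genes summed to 249.4, 184 and 145 FPKM in KO and 249.5 to 271 in WT. Of these 12, 11 had a negative difference and 1 was called, Lyz2, lysozyme of myeloid cells, which fell from 31.9 ± 1.27 to 17.3 ± 3.31 FPKM (SD, n = 3 each; limma, adjusted p = 0.038). Clec4f, specific to Kupffer cells, stood at 38.1, 29.3 and 22.4 FPKM in KO and 42.9 to 46.8 in WT. KO replicates 2 and 3 were thus the low libraries in the mean level of the MHC class II genes, of the Kupffer cell genes and of the GTPases, and the part of these cells in the interferon-gene values was not tested. In whole-liver RNA, fewer cells of a type and less RNA per cell cannot be told apart.

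T and NK cell genes, the main sources of interferon gamma, summed to 1.92 to 4.37 FPKM in KO and 3.16 to 3.52 in WT over 13 genes, and 12 of them stayed under 1 FPKM in every library and 7 were listed at 0 in at least 1. The 6 B cell genes summed to 0.30 to 1.11 FPKM, 4 of them listed at 0 in at least 1 library. Neutrophil genes were high in replicate 1, with sums of 19.2 FPKM in KO and 21.6 in WT against 4.64 to 7.07 in the other 4 libraries. Sinusoidal endothelial genes summed to 78.9, 111 and 75.8 FPKM in KO replicates 1, 2 and 3 and to 83.0 to 106 in WT. Stellate cell genes summed to 88.6 to 100.4 FPKM in KO and 101 to 117 in WT, and genes of monocytes and plasmacytoid dendritic cells to 11, 10.3 and 5.58 FPKM in KO and 16.7, 8.93 and 11.5 in WT. In mean level the hepatocyte list went the other way from the MHC class II and Kupffer cell lists, with mean deviations of 0.0060 to 0.20 in KO and -0.16 to -0.099 in WT. Its sums overlapped, at 44223 to 51384 FPKM in KO and 40218 to 46698 in WT. Of its 7 tested genes 0 passed (limma, lowest adjusted p = 0.20), and 6 overlapped between genotypes.

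**Figure D5:**
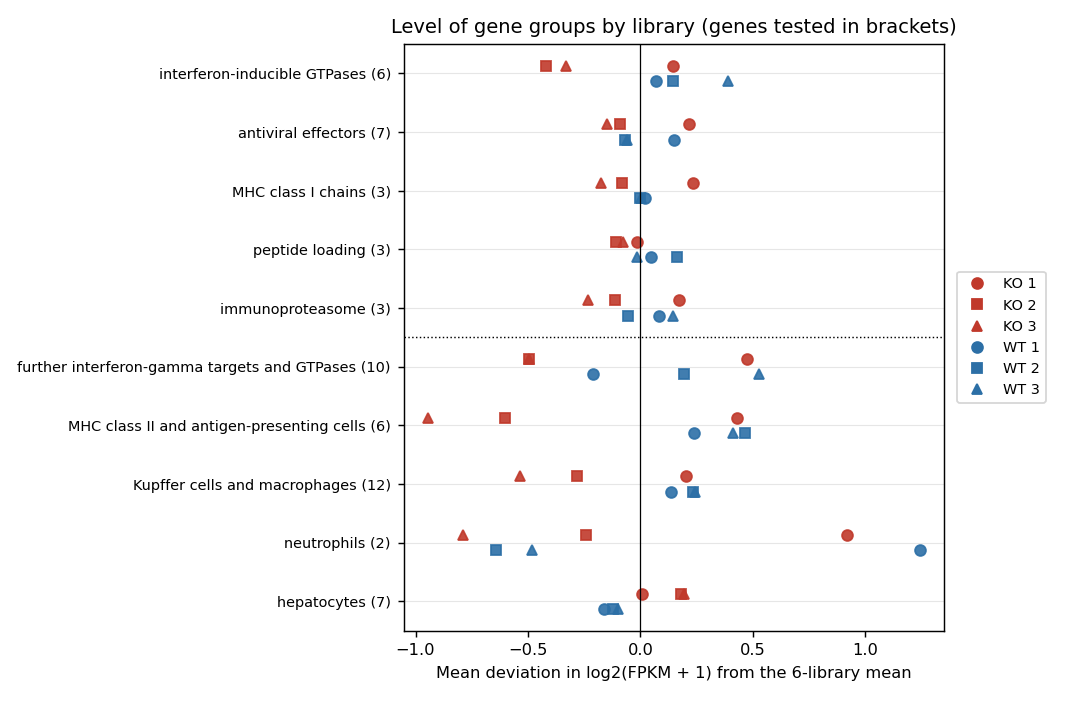
Mean deviation in log2(FPKM + 1) from the 6-library mean for groups of genes (number tested in brackets), one symbol per library; roles of the 36 genes are above the dotted line, other interferon targets and cell type lists below it. KO replicates 2 and 3 lie at the left for the GTPases (-0.42 and -0.33), the MHC class II genes (-0.60 and -0.94) and the Kupffer cell genes (-0.28 and -0.54), while KO replicate 1 lies among the WT libraries.

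Other genes of the pathway gave no call. Of 172 further genes listed, 157 were in the table and 115 were tested, 0 passed over all genes, and 3 were higher and 8 lower at an unadjusted p under 0.05 (limma). Over all tested genes 0.762% passed, and 9.93% had an unadjusted p under 0.05 (5.89% lower and 4.04% higher). A negative difference was found in 55.8% of all tested genes. The same shares apply to the counts of each list that follows. Interferon transcripts themselves were close to nil: Ifng was listed at 0 to 0.15 FPKM and Ifnk at 0 to 0.14, and no other ligand of the list was in the table. Of 14 tested receptors and signalling genes 6 had a positive difference and 8 a negative one. The most abundant were the receptor chain Ifnar2, at 43.0 to 49.1 FPKM in KO and 36.2 to 47.9 in WT, and the repressor Irf2, at 19.0 to 20.8 in KO and 15.5 to 19.5 in WT. Socs3, a feedback inhibitor, was the 1 gene higher at an unadjusted p under 0.05 (limma), at 1.42 to 2.21 FPKM in KO and 0.88 to 1.55 in WT. Among 14 tested genes of nucleic acid sensing, 5 differences were positive and 9 negative, with Mavs at 16.6 to 21.2 FPKM in KO and 18.4 to 20.5 in WT and Irf3 at 13.5 to 16.6 and 14.7 to 17.5. The adaptor Myd88 was the 1 gene of that list higher at an unadjusted p under 0.05 (limma), at 7.40 to 7.93 FPKM in KO and 5.54 to 6.17 in WT.

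Further interferon-stimulated genes had a median difference of -0.16, and 27 of 34 tested were negative. At an unadjusted p under 0.05, 4 were lower (Isg20, Nmi, Ube2l6 and Lgals9) and 0 higher (limma), against 5.89% and 4.04% of all tested genes. The most abundant were Lgals9, a galectin, at 152, 114 and 122 FPKM in KO and 199, 158 and 152 in WT, and Ifitm2 at 135 to 172 FPKM in KO and 137 to 172 in WT. Lgals9 was not called with all libraries (-0.39, SE 0.15; limma, adjusted p = 0.42) and was without replicate 1 of both genotypes (-0.39; limma, adjusted p = 0.0093). The further interferon-gamma targets had a median of -0.38 over 10 tested genes, 8 of them negative, with Tgtp1 and Cxcl9 lower and Gm4951 higher at an unadjusted p under 0.05 (limma). Cxcl9, a chemokine that attracts T cells, stood at 5.89, 0.97 and 0.97 FPKM in KO and 3.03, 6.01 and 7.31 in WT, again with KO replicate 1 among the WT values. Their mean deviation was 0.48, -0.50 and -0.49 in KO replicates 1, 2 and 3 and -0.21, 0.20 and 0.53 in WT. The GTPase gene Gm4951, the most abundant of them, was at 33.3, 24.1 and 33.9 FPKM in KO and 19.0, 19.4 and 26.3 in WT, with KO replicate 2 below WT replicate 3, and Ifi47 was at 4.29 to 5.83 in KO and 4.02 to 7.68 in WT.

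The other class I heavy chains had a median of 0.0022 over 17 tested genes, 9 positive and 8 negative, and 0 passed at either p (limma). H2-Q10, a secreted class I protein made by liver, was more abundant than H2-K1 in every library, at 1170, 963 and 934 FPKM in KO and 1139, 882 and 824 in WT (0.12, SE 0.16; limma, adjusted p = 0.90). H2-T23, which encodes Qa-1, stood at 122 to 148 FPKM in KO and 106 to 129 in WT. All 11 tested genes of peptide processing and loading had negative differences (median -0.19), and 0 passed at either p (limma). Of these, the chaperone Calr stood at 188, 251 and 234 FPKM in KO and 226, 286 and 285 in WT, and Pdia3 at 127, 169 and 164 in KO and 152, 210 and 216 in WT. Both were lowest in replicate 1 of each genotype, and both were called lower without replicate 1 (limma, adjusted p = 0.046 and 0.0087). The 15 constitutive proteasome genes had a median of -0.15, with 12 negative and 2 lower at an unadjusted p under 0.05 (Psma1 and Psma4), and 0 passed over all genes (limma). Over all tested genes 55.8% were negative and 5.89% were lower at that p. WT replicate 1 held the highest summed level, 1395 FPKM, against 1028 to 1099 in the other 5 libraries. Psmb1 was at 100.1 to 118 FPKM in KO and 107 to 137 in WT, and the assembly factor Pomp at 109.6 to 118 and 119 to 155.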

How the data were processed

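Liver RNA of 6 libraries, 3 Cyp2e1-/- and 3 Cyp2e1+/+, was analysed from 1 table of FPKM values that the authors deposited with 2 decimals. The submitters' processing notes name HISAT and mm10. No source used here names the program that made the FPKM or its annotation. The values are not counts, and they were tested on a log scale. Low values of short single-transcript genes fell on steps, of which 61.1% to 72.7% lay within 0.15 of a whole fragment. These put 1 FPKM at 8.19 to 10.7 fragments per kilobase, highest in KO replicate 1, and they depend on the transcript lengths assumed.

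The test was limma 3.58.1 (trend) in R 4.3.3 on log2(FPKM + 1), KO minus WT, for the 9968 genes that reached 1 FPKM in 3 or more libraries. P-values were adjusted by Benjamini-Hochberg over these, with 0.05 as threshold, and SE and 95% intervals come from the same fit. The script was tested on simulated data. A fold on this scale understates the change of low genes. P-values measure only the spread between these samples, which the labels do not tie to separate animals. Alternatives were another pseudocount (0.1), 2 other filters, median centring, quantile normalization, sample weights, the replicate number as a block, and leaving out libraries. The labels give no pairing of the samples. Same-numbered samples deviated from their group means together, with correlations of 0.30, 0.20 and 0.16 over tested genes for replicates 1, 2 and 3. However, KO replicate 3 correlated more with WT replicate 2 (0.21), so a pairing by number is uncertain. The main fit did not pair the samples, and the fit with the replicate number as a block was an alternative. The blocked fit stands beside the result it changed.

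The 36 genes and all lists were chosen with earlier results of these data known. Genes named are all 36, then for each pathway list the genes past the threshold or, with none, the 2 most abundant tested genes. Socs3, Myd88, Isg20, Nmi, Ube2l6, Tgtp1, Cxcl9, Psma1, Psma4, Ifi27l2a, Ifi27l2b, Ifit3b, Apof, Lyz2, Clec4f and S100a8 were named after their values were seen. Positions, promoters and overlaps come from RefSeq on GRCm38.p6, the assembly that mm10 names, and shared 31-base words from GENCODE M21 transcripts.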

Additional observations from a re-analysis of the deposited data

How the results depend on the processing

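The number of the 30 tested genes that passed was 1 with all libraries, all of it the rise of Ifi27. It was 0 with no filter on low values, with median centring and with the replicate block, and 10 (1 higher and 9 lower) with sample weights. When 1 library was left out it ranged from 0 to 3, with 0 to 1 higher and 0 to 2 lower, and it was 10 (1 higher and 9 lower) without replicate 1 of both genotypes. Genes whose groups did not overlap numbered 9, and 10 to 17 with 1 library left out and 22 without replicate 1 of both genotypes, since fewer libraries overlap less often. The median difference stayed between -0.29 and -0.14 under all 14 alternatives. The replicate block changed no other call among the genes named by the rule. Over all tested genes the calls numbered 76, compared with 32 with no filter, 48 with 1 FPKM required in all libraries, 1151 with sample weights, 211, 29 and 37 without KO replicate 1, 2 or 3, 117, 32 and 32 without WT replicate 1, 2 or 3, and 1183 without replicate 1 of both genotypes.

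Signs of small differences that were never called changed in some fits, and the cause was not tested. With sample weights Irf1 stood at -0.072, H2-K1 at -0.036, Psmb10 at 0.067, Mavs at 0.0033 and Irf3 at 0.035. With median centring and quantile normalization Tapbp stood at 0.011 and 0.033, and Mavs at 0.00021 and 0.018. Without replicate 1 of both genotypes Irf1 stood at -0.22, H2-K1 at -0.076, H2-D1 at -0.012, Psmb10 at 0.050, Mavs at 0.029 and Irf3 at 0.027. With 1 library left out, the differences ranged from -0.082 to 0.28 for Irf1, -0.012 to 0.53 for Irf7, -0.027 to 0.51 for Oas1a, -0.24 to 0.099 for Ifitm3, -0.37 to 0.056 for Gbp2, -0.087 to 0.11 for H2-K1, -0.014 to 0.21 for H2-D1, -0.13 to 0.083 for Tap2, -0.11 to 0.032 for Tapbp and -0.21 to 0.0056 for Psmb10. They ranged from -0.0028 to 0.19 for Ifnar2, -0.091 to 0.075 for Mavs, -0.076 to 0.11 for Ifitm2 and -0.23 to 0.16 for Ifi47. The 6 untested effectors lie near the lowest levels in the table, with 8.19 to 10.7 fragments per kilobase at 1 FPKM by estimate. They were fitted only with no filter on low values, where 0 of them passed, also at an unadjusted p under 0.05 (limma).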
